A study of Mus musculus with 6 samples.

Results

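Of 7 genes known for their expression at the double-positive stage of thymocyte development, 6 could be measured here: Tdrd5, Endou, Spo11, Aqp11, Arpp21 and Cd24a. They were taken from 22180 genes with a probe set naming that gene alone, each gene being read on its brightest probe set by the mean of the 6 arrays. The other one, Mns1, had 1 probe set, which also named a neighbouring gene, so Mns1 was not analysed here. The arrays held RNA of thymocytes positive for both CD4 and CD8, 3 from Ets1-/- mice and 3 from wild-type mice, all of the C57BL/6 strain and 5 to 6 weeks old, and Ets1-/- was the difference in genotype that the labels give between the groups. Litter-mate cohorts served as the replicates, the cells were fixed with formaldehyde before 2 rounds of magnetic bead selection, against CD8 and then CD4, and RNA was taken with TRIzol. The sources used here do not say whether an array held 1 animal or a pool, nor which part of Ets1 was deleted and in which cells. The genes were selected on their levels in these 2 groups and the differences between them, which were known when the set was drawn up. Those values are therefore given below as a description with no test.

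Double-positive thymocytes are the stage at which T-cell precursors carry both coreceptors, rearrange the T-cell receptor alpha locus and are tested for self-recognition. Besides the recombinase and the coreceptors, they transcribe several genes better known from other tissues. Tdrd5 is a Tudor-domain protein that mouse male germ cells need to silence retrotransposons, Spo11 makes the DNA double-strand breaks that start meiotic recombination, and Mns1 is a coiled-coil protein of motile cilia and sperm flagella. Endou is a uridylate-specific endoribonuclease, and Arpp21 an RNA-binding phosphoprotein first described in the brain. Aqp11 is an intracellular water channel, and Cd24a encodes heat-stable antigen, a small GPI-anchored glycoprotein that immature thymocytes carry at high density and lose on maturation. Ets1, the gene targeted in the mice, is a lymphocyte transcription factor of the ETS family, whose members bind DNA around a GGAA core.

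Promoter sequence was available for 4 of the 7 genes in the RefSeq-based table of GRCm38.p6, which gives 250 bases before and 50 after each transcription start. The windows of Tdrd5, the gene with the largest difference between the groups, and of Aqp11, the gene with the smallest, are shown to let the 2 extremes be compared. Capitals mark the core GGAA on either strand, so that TTCC is the core read on the other strand. Both windows lie on the minus strand and are written 5′ to 3′ in the direction of transcription, at chr1:156303299-156303598 for Tdrd5 and chr7:97738198-97738497 for Aqp11.
Tdrd5: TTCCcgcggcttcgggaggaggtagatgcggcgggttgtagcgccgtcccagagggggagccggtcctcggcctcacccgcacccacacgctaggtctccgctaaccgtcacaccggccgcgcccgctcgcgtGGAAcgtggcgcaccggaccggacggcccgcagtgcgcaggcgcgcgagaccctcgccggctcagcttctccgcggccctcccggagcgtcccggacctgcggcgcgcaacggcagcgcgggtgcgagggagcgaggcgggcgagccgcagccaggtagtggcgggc
Aqp11: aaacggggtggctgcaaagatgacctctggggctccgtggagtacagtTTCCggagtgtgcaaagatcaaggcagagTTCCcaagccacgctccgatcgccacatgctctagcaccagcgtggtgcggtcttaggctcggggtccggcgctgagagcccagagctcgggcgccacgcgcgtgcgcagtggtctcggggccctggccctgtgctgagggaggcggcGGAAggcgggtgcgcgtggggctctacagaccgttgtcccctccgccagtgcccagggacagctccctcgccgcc
The Tdrd5 window held 2 cores and the Aqp11 window 3, while 96.0% of the 32851 promoter windows in the table held at least 1. The longer motif CCGGAA, searched on both strands and overlapping the core, was found 0 times for Tdrd5 and 1 time for Aqp11, starting at base 49 of the window, and 14.9% of all windows held it. The Mns1 window held 2 cores and 0 copies of CCGGAA. Arpp21 had 9 windows for its several starts, with 0 to 4 cores and 0 copies of CCGGAA in each. The Tdrd5 window was rich in G and C, at 76.0% against a median of 52.7% over all windows, and Aqp11 was at 68.0%. Motifs of other factor families were looked for as well. AGGTCA, a half-site of nuclear receptors, was found in the Aqp11 window (16.3% of all windows), while the E-box CAGCTG (16.3% of all windows), the RUNX motif TGTGGT (16.8%), the TCF motif CTTTGA (16.003%) and the GATA motif AGATAA (11.2%) were found in neither the Tdrd5 nor the Aqp11 window on either strand. A match or its absence in such a window describes its letters only.

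The defining genes of the labelled cell type gave strong signals. Cd4, Cd8a and Cd8b1 averaged 11.08, 10.91 and 11.66 in the Ets1-/- group and 10.94, 11.00 and 11.69 in the wild-type group on the log2 scale, where the 75th percentile of all probe sets was 5.73. All 6 measured genes of the set also lay above that percentile on every array. The probe set of Ets1 gave 9.27, 9.22 and 8.79 on the Ets1-/- arrays, against 9.11, 9.32 and 9.17 on the wild-type arrays. The place of its probes relative to the deleted part is unknown here, so the labels could not be checked by this signal, and Ets1-/- stands for the label throughout. Over all genes the median difference, Ets1-/- minus wild type, was -0.22, and over the 6246 genes above the 75th percentile it was -0.13. Ets1-/- replicate 1 had the lowest array median, 3.66, where the other 5 arrays lay between 4.19 and 4.33.

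The 6 genes differed widely in how the groups compared. Tdrd5 and Endou were far lower in the Ets1-/- group, Spo11 was lower by a smaller amount, and Arpp21, Cd24a and Aqp11 lay within 0.17 of the median difference of all genes. Tdrd5 gave 7.59, 8.28 and 8.10 on the Ets1-/- arrays, against 10.49, 10.30 and 10.84 on the wild-type arrays. Every Ets1-/- array was at least 2.01 below every wild-type array, a gap larger than the range within either group (0.70 in Ets1-/- and 0.55 in wild type). The mean was 7.99 ± 0.36 in Ets1-/- and 10.54 ± 0.28 in wild type (SD, n = 3 each), a difference of -2.55 ± 0.28 (limma's moderated SE). On the linear scale the Ets1-/- level was 5.88-fold lower. Only 0.23% of all genes had a difference as low as this or lower. In RNA from a sorted population, fewer cells that carry a transcript and less of it per cell cannot be told apart.

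Endou, the endoribonuclease, showed the second largest difference. Its signal was 6.61, 7.83 and 7.99 on the Ets1-/- arrays, against 9.60, 9.70 and 9.84 on the wild-type arrays. The groups were separated by 1.62, and the Ets1-/- arrays were the more scattered, since replicate 1 lay 3.11 below the wild-type mean and replicates 2 and 3 lay 1.88 and 1.73 below it. The mean was 7.48 ± 0.76 in Ets1-/- and 9.71 ± 0.12 in wild type (SD, n = 3 each), a difference of -2.24 ± 0.38 (SE), or 4.72-fold lower. Ets1-/- replicate 1 was the lowest array for both Tdrd5 and Endou, and the same array had the lowest median over all probe sets. Its part in these differences is given by leaving it out, which left -2.35 for Tdrd5 and -1.80 for Endou.

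Spo11, the meiotic nuclease, had a difference of intermediate size. It gave 6.94, 6.42 and 6.52 on the Ets1-/- arrays, against 7.61, 7.23 and 7.83 on the wild-type arrays. The groups did not overlap, but the gap between them, 0.29, was smaller than the range within Ets1-/- (0.52) or within wild type (0.59). The mean was 6.63 ± 0.28 in Ets1-/- and 7.56 ± 0.30 in wild type (SD, n = 3 each), a difference of -0.93 ± 0.26 (SE), or 1.90-fold lower. Here Ets1-/- replicate 1 was the highest of its group, unlike its place for Tdrd5 and Endou. Among genes above the 75th percentile, 5.54% had a difference as low or lower.

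**Figure D1:**
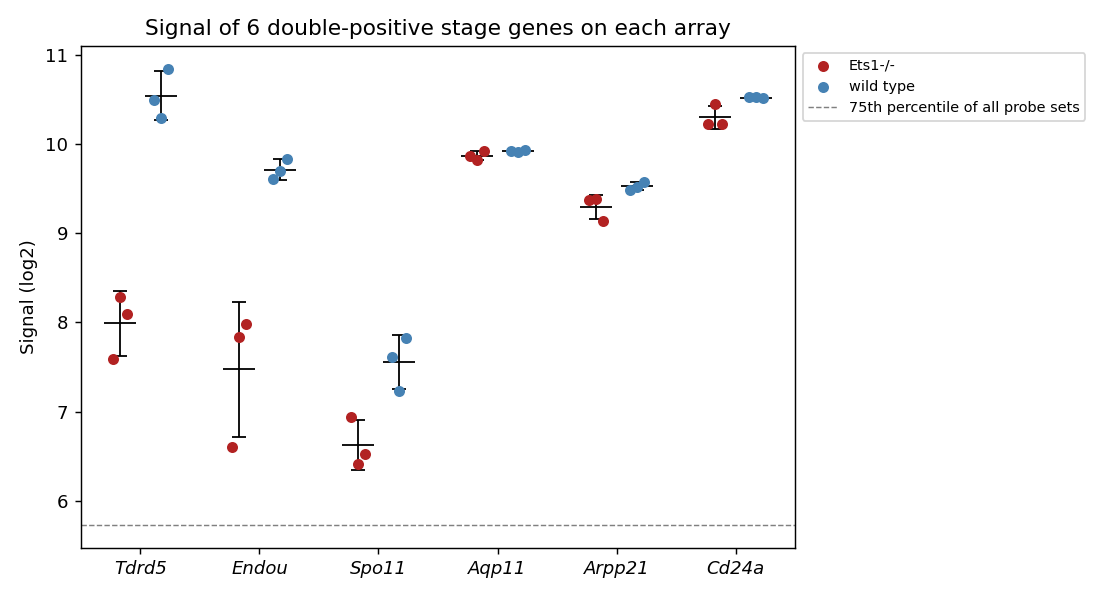
Signal (log2, vertical axis) of the 6 measured genes on each array, Ets1-/- in red to the left of wild type in blue, with bars for the mean and SD of 3 arrays and a dashed line at the 75th percentile of all probe sets. Tdrd5 and Endou are separated by 2.01 and 1.62 between the groups, Spo11 by 0.29, and the groups of Aqp11 overlap.

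The other 3 genes differed little. Aqp11, the water channel, gave 9.86, 9.82 and 9.92 on the Ets1-/- arrays, against 9.92, 9.91 and 9.93 on the wild-type arrays. The groups overlapped, with Ets1-/- replicate 3 inside the wild-type range, and the difference was -0.05 ± 0.20 (SE). Arpp21, the RNA-binding phosphoprotein, gave 9.37, 9.38 and 9.14 on the Ets1-/- arrays, against 9.49, 9.52 and 9.57 on the wild-type arrays. Its difference was -0.23 ± 0.21 (SE), which was 0.01 below the median of all genes, and every Ets1-/- array was below every wild-type array by at least 0.11. A second probe set that names Arpp21 also names another transcript and was not used.

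Cd24a, heat-stable antigen, gave 10.23, 10.45 and 10.22 on the Ets1-/- arrays, against 10.53, 10.53 and 10.51 on the wild-type arrays. The groups did not overlap, although the gap was only 0.06, and the difference of -0.22 ± 0.21 (SE) equalled the median of all genes to 2 decimals. The SD was 0.13 in Ets1-/- and 0.0075 in wild type, whose arrays lay close together. Cd24a was the only one of the 6 with 2 probe sets of its own, and they disagreed in sign. The dimmer one gave 9.07, 9.67 and 9.09 on the Ets1-/- arrays, against 9.37, 9.34 and 8.84 on the wild-type arrays, a difference of 0.09 with overlapping groups.

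Taken as a set, 6 of 6 differences lay below 0 and 4 of 6 below the median of all genes, with a median of -0.58 against -0.22 over all genes. The groups did not overlap, with Ets1-/- lower, for 5 of the 6 genes, where 16.1% of all genes did so. Because the genes were chosen with these values in view, nothing is read from these counts, and no call is given for the 6. In the limma fit over all genes, 1.86% were called in either direction at a Benjamini-Hochberg adjusted p under 0.05. Of all genes 0.568% were called lower and 1.29% higher. When each array was centred on its median, the differences were -2.34, -2.03, -0.72, 0.16, -0.02 and -0.01 for Tdrd5, Endou, Spo11, Aqp11, Arpp21 and Cd24a, so that Aqp11 changed its sign.

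**Figure D2:**
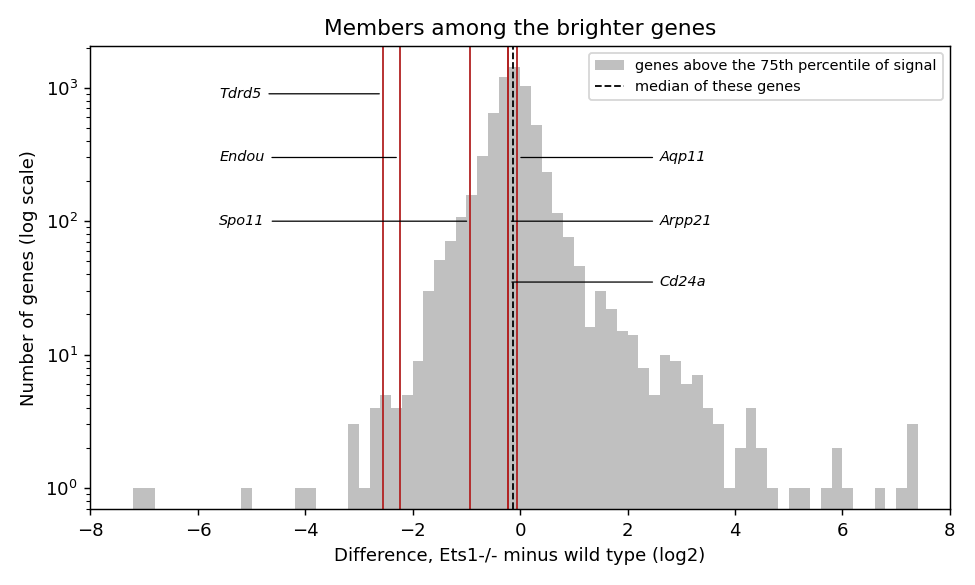
Histogram of the difference between Ets1-/- and wild type (log2, horizontal axis) for the 6246 genes above the 75th percentile of signal, with the number of genes on a log scale. Red lines mark the 6 genes and the dashed line the median of -0.13. Tdrd5 and Endou stand in the lower tail, and Arpp21, Cd24a and Aqp11 near the median.

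The shape across the 6 arrays was compared between genes by the root mean square difference of their deviations from their own 6-array means, a distance in log2 units that is 0 for identical shapes. Among the 6 genes the smallest distance was 0.08, between Arpp21 and Cd24a, and the distance between Tdrd5 and Endou was 0.32. Spo11 was nearer to Arpp21 (0.42) than to Tdrd5 (0.89). Of 11090 genes brighter than the median gene, the 5 nearest to Tdrd5 were Nbeal2 at 0.14, the long non-coding RNA Mirt1 at 0.17, the plexin Plxnd1 at 0.21, the cytokine Ltb at 0.26 and the coagulation factor chain F13a1 at 0.30. Nbeal2, a BEACH-domain protein, gave 4.21, 4.72 and 4.61 on the Ets1-/- arrays, against 6.95, 7.01 and 7.13 on the wild-type arrays. The nearest to Endou were the receptor phosphatase Ptprf at 0.17 and the integrin chain Itga6 at 0.22. These 7 genes were lower on the Ets1-/- arrays by 2.04 to 3.02 in mean signal.

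The flat genes had flat neighbours. Aqp11 was nearest to the splicing factor Hnrnph1 (0.02) and the coreceptor gene Cd8a (0.03), and Cd24a to the nuclear pore gene Nup214 and the import receptor Kpnb1 (both 0.03). Arpp21 was nearest to Olfr1087, an odorant receptor, at 0.03 and to the cohesin loader Nipbl at 0.04. Spo11, at a difference of -0.93, was nearest to Mir2137 at 0.17 and D330041H03Rik at 0.18. These neighbours of Spo11 had differences of -0.89 and -0.77. With 6 arrays in 2 groups, any 2 genes with like differences come out near each other by this measure.

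**Figure D3:**
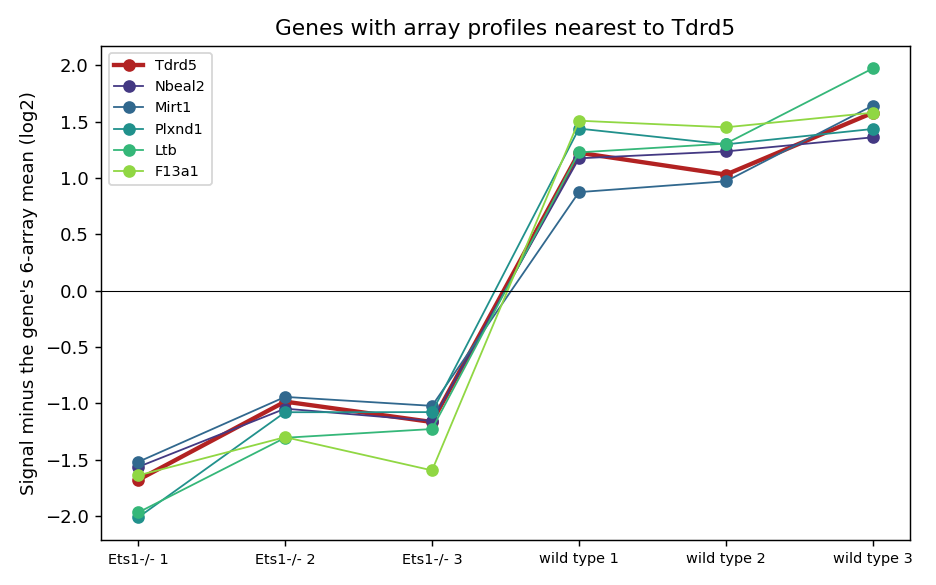
Signal minus each gene's own 6-array mean (log2, vertical axis) on the 6 arrays, Ets1-/- left of wild type, for Tdrd5 (thick red line) and the 5 genes nearest to it in shape. All 6 lines lie below 0 on the 3 Ets1-/- arrays and above 0 on the 3 wild-type arrays.

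Other genes of the double-positive stage were counted from a list of 30, of which 27 had a probe set naming them alone. That list too was drawn up with earlier results of these data known, so its counts are a description. In the limma fit 2 of the 27 were lower and 1 was higher at an adjusted p under 0.05, against 1.86% of all genes in either direction. The 1 higher was Ptcra, a gene of the preceding stage that is also counted below among double-negative markers. The median difference of the 27 was -0.08, where that of all genes was -0.22. The groups did not overlap for 10 genes with Ets1-/- lower and for 6 with Ets1-/- higher, where the shares over all genes were 16.1% and 5.76%. Plxnd1, a receptor for semaphorins that guides thymocytes to the medulla, fell to 4.88, 5.81 and 5.81 on the Ets1-/- arrays, against 8.33, 8.19 and 8.33 on the wild-type arrays (difference -2.78 ± 0.30 SE, limma adjusted p = 0.00406). Ets2, an ETS factor related to Ets1, fell by 1.88 ± 0.24 (SE, adjusted p = 0.00811).

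Ptcra, the pre-T-cell receptor chain of the preceding stage, rose to 9.00, 9.37 and 9.50 on the Ets1-/- arrays, against 8.04, 7.81 and 7.54 on the wild-type arrays (difference 1.50 ± 0.25 SE, limma adjusted p = 0.0282). Its call ended when any array other than Ets1-/- replicate 1 was left out, with an adjusted p between 0.0660 and 0.116. Rag2, the recombinase subunit, had 9.48 ± 0.04 in Ets1-/- and 9.77 ± 0.07 in wild type (SD, n = 3 each), and Dntt, the terminal transferase, 10.41 ± 0.02 in Ets1-/- and 10.87 ± 0.03 in wild type. Their differences of -0.29 and -0.46 did not pass the limma test (adjusted p = 0.581 and 0.389). Limma's SE was 0.21 and 0.20, well above these SDs, because the fit draws each gene's variance toward that of all genes. Cd4, Cd8a and Cd8b1 differed by 0.13, -0.09 and -0.03, and the adjusted p was 0.794 or higher. In the order of differences Tdrd5 and Endou stood between Plxnd1 and Ets2, Arpp21 and Cd24a between Rag2 and Cd8a, and Aqp11 between Cd8a and Cd8b1.

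**Figure D4:**
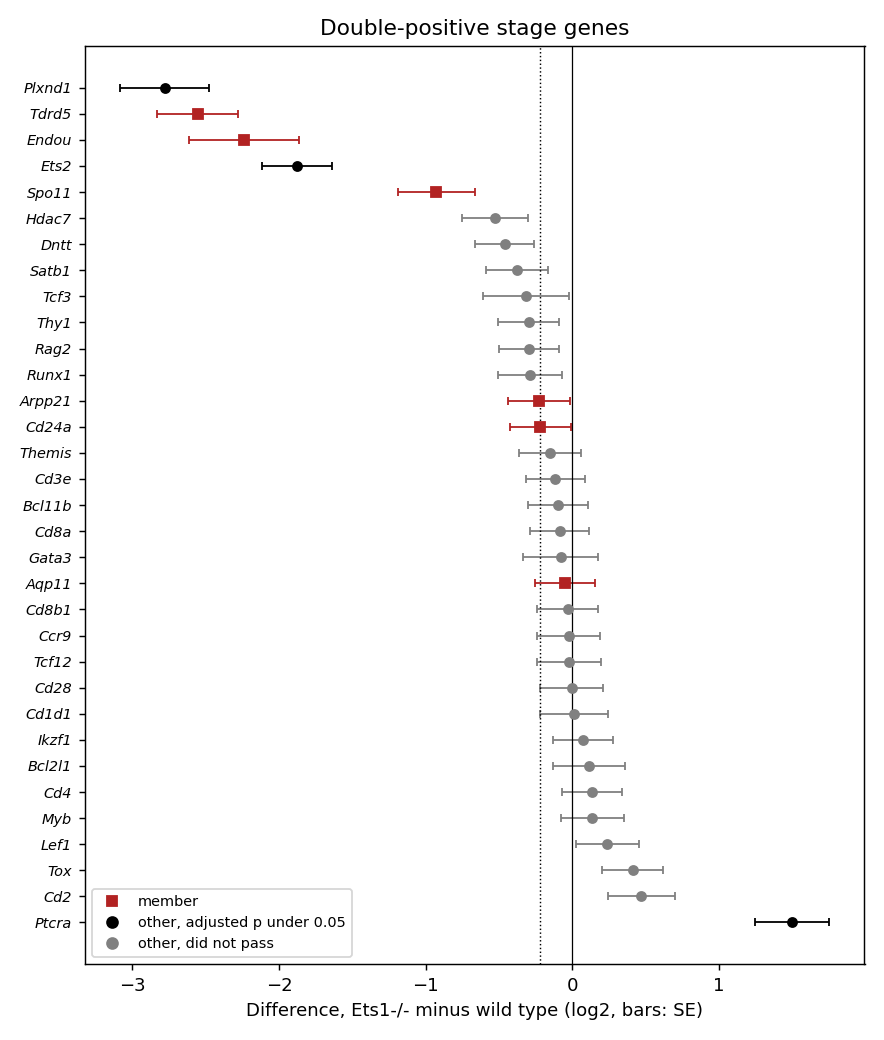
Difference between Ets1-/- and wild type (log2, horizontal axis, bars for limma's SE) for the 6 measured genes (red squares) and 27 other genes of the double-positive stage (black circles where the adjusted p was under 0.05, grey where not). The dotted line marks the median of all genes, -0.22. The values run from -2.78 for Plxnd1 to 1.50 for Ptcra.

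Since Tdrd5 and Spo11 are germ-line genes elsewhere, their partners there were counted. Of 24 measured genes of the Tudor and piRNA pathway, 0 passed the limma test over all genes (4 lower and 0 higher at an unadjusted p under 0.05, where 8.62% of all genes were lower and 4.54% higher), with a median difference of -0.32 against -0.22 over all genes. Only 2 of the 24 had a wild-type mean above the 75th percentile of signal. The translational regulator Nanos3 and the Tudor protein Tdrd12 had the smallest p, with 3.48 ± 0.31 and 3.11 ± 0.07 in Ets1-/- and 4.63 ± 0.53 and 3.91 ± 0.31 in wild type (SD, n = 3 each; limma adjusted p = 0.164 and 0.189). Of 38 genes of meiotic recombination and synapsis, 1 was lower and 0 higher in the limma fit, where 0.568% of all genes were lower and 1.29% higher. At an unadjusted limma p under 0.05, 6 were lower and 1 higher. The median difference of the 38 was -0.32, and 5 had a wild-type mean above the 75th percentile. Trip13, an ATPase that remodels HORMA-domain proteins in meiosis and in the mitotic checkpoint, fell to 4.40, 3.89 and 4.17 on the Ets1-/- arrays, against 6.68, 5.81 and 6.30 on the wild-type arrays (limma adjusted p = 0.0123). Its adjusted p was 0.0615 without Ets1-/- replicate 2 and 0.0509 without wild-type replicate 3. The helicase Brip1 and the MutS homologue Msh5 had differences of -1.36 and -2.36 without passing (limma adjusted p = 0.112 and 0.216). Msh5 was dim, with a 6-array mean not above the median of all probe sets, 4.13. With 16 added to the linear signal the differences of Brip1 and Msh5 were -0.98 and -0.92.

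The relatives of the other genes gave few calls. Of 25 genes of the motile cilium, where Mns1 acts, 0 passed the limma test. At an unadjusted limma p under 0.05, 2 were lower and 0 higher, where 8.62% of all genes were lower and 4.54% higher. Cfap20, a protein of the axonemal microtubules, and Foxj1, the transcription factor of multiciliated cells, had differences of -0.65 and -0.69 (limma adjusted p = 0.227 and 0.357). Of the 11 other aquaporins 0 passed, and 0 had an unadjusted limma p under 0.05. Aqp5 and Aqp1 had the smallest p at -0.45 and -0.47 (limma adjusted p = 0.509 and 0.515), and 0 of the 11 had a mean above the 75th percentile of signal in either group, unlike Aqp11. Of 7 measured relatives of Arpp21, the R3H-domain and ARPP-19 families, 0 passed and 0 had an unadjusted limma p under 0.05. R3hdm1 and R3hdm4 were at -0.27 and -0.31 (limma adjusted p = 0.610 and 0.653).

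Cd24a marks immature thymocytes, and genes of the following maturation to the single-positive stage were counted beside it. Of 22 that were measured, 9 rose and 1 fell in the limma fit, where 1.29% of all genes rose and 0.568% fell, and the other 12 did not pass. Their median difference was 1.01, against -0.22 over all genes. The groups did not overlap for 13 of the 22 with Ets1-/- higher and for 4 with Ets1-/- lower. Those 4 were Cd5, Cd6 (-1.41), Cd52 (-0.46) and Gimap6 (-0.39). Over all genes the shares were 5.76% and 16.1%. The list was drawn up with earlier results of these data known, so nothing is read from these counts or the median. Klf2, the transcription factor of thymic exit, rose to 8.07 ± 0.09 in Ets1-/-, against 4.46 ± 0.31 in wild type (SD, n = 3 each; limma adjusted p = 0.000578). S1pr1, the receptor for leaving the thymus, rose by 3.54, the granule protein Nkg7 by 3.23, the membrane protein Ms4a4b by 2.94 and the adhesion receptor Cd44 by 2.14 (limma adjusted p = 0.00353 or lower). Cd5, a restraint on T-cell receptor signals, fell by 1.90 ± 0.25 (SE, adjusted p = 0.00937) and lost its call without Ets1-/- replicate 2 (adjusted p = 0.0509).

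Many markers of other cells, though not all, differed between the groups. Over all genes 1.29% rose in the limma fit and 0.568% fell. The marker lists were drawn up with earlier results of these data known. The summed linear signal of 15 macrophage markers was 4093 to 5532 on the Ets1-/- arrays and 790 to 960 on the wild-type arrays, and 12 of them rose in the limma fit. For 12 dendritic-cell markers the sums were 3507 to 3752 and 565 to 666 in the same order. The 6 that rose were H2-Aa, H2-Ab1, H2-Eb1, Irf8, Itgax and Bst2. Xcr1, Zbtb46, Batf3, Cd209a, Flt3 and Siglech did not pass, with differences of -1.15, -0.38, -0.25, -0.19, 0.03 and 0.81. For 11 markers of B cells, which also carry Cd24a, the sums were 468 to 987 and 118 to 162, with 5 that rose. For 9 markers of mature single-positive T cells they were 1397 to 1697 and 537 to 652 (6 rose). Those of 13 double-negative thymocyte markers were 1175 to 1486 and 418 to 556. The 3 that rose were Ptcra, Il2ra and Spi1. Ptcra and Il2ra were the brightest of the 13 in Ets1-/- (means 9.29 and 8.71). Hes1, Lmo2, Lyl1, Bcl11a and Erg did not pass, with differences of 3.04, 2.96, 2.63, 1.40 and 0.80. Kit, Dtx1, Notch3, Nrarp and Notch1 did not pass either, at 0.10, -0.003, -0.04, -0.29 and -0.94. The groups did not overlap for 7 of the 13 with Ets1-/- higher and for 1, Notch1, with Ets1-/- lower.

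Of 6 markers of erythroid cells, which carry Cd24a as well, 0 passed the limma test and 0 had an unadjusted p under 0.05, with sums of 69.9 to 130 on the Ets1-/- arrays and 113 to 134 on the wild-type arrays. Of 10 germ-cell markers 0 passed, and 0 had a mean above the 75th percentile of signal in either group. At an unadjusted limma p under 0.05, 1 was higher and 1 lower, where 4.54% of all genes were higher and 8.62% lower. Of 11 markers of thymic epithelium 0 passed (1 lower at an unadjusted limma p under 0.05), with sums of 132 to 295 and 202 to 223. The part of these cells in the differences of Tdrd5, Endou and Spo11 was not tested.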

How the data were processed

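RNA was measured on 6 Affymetrix arrays. The authors deposited log2 signals for 41345 probe sets. That they are on a log2 scale was inferred from their range. They were made with affy, per the submitters' processing notes. The version, background correction, normalization and build: not given in the sources used here. Array medians in the deposited log2 values ran from 3.66 to 4.33. The number of arrays limits the precision.

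The platform annotation gave 23521 probe sets with 1 gene, 1814 with several and 16010 unnamed here. Genes were named through the RefSeq table of GRCm38.p6 (23328 probe sets matched). The brightest probe set stood for each of 22180 genes, with no filter on low values. Ets1-/- minus wild type was fitted by lmFit and eBayes of limma 3.58.1 under R 4.3.3, with no covariate, adjusted by Benjamini-Hochberg over all genes at 0.05, and tested on simulated data. The labels call litter-mate cohorts the biological replicates. The spread behind each p-value is that between these samples, drawn by limma toward a variance shared by all genes. For genes with little spread the shared variance sets most of the SE, as for Aqp11 (SD 0.050 in Ets1-/- and 0.0088 in wild type, SE 0.20). Python 3.11.15 with pandas 2.3.3 made the summaries.

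The genes named were the 7 of the set, called genes of each list (up to 6 by smallest p, or the 2 with the smallest p where fewer were called), a fixed set of stage genes, and the nearest genes in shape. The members and lists were chosen with earlier results of these data known. Alternatives were other normalizations, a pseudocount of 16 on the linear scale, a filter at the median, the mean of probe sets, another variance prior, a replicate block and the omission of each array.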

Additional observations from a re-analysis of the deposited data

How the results depend on the processing

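The differences of Tdrd5, Endou and Spo11 moved by less than the SD pooled over both groups under all 15 alternatives run for each, between -2.70 and -2.34, -2.49 and -1.80, and -1.09 and -0.72. Several of the 15 could not move them and say nothing about their stability. Each of these genes has 1 probe set, so the mean of probe sets is the same value. The filter, the variance prior and the replicate block leave a difference as it is. Leaving out 1 array gave -2.70 to -2.35 for Tdrd5, -2.49 to -1.80 for Endou, -1.09 to -0.79 for Spo11, -0.08 to -0.03 for Aqp11, -0.27 to -0.15 for Arpp21 and -0.29 to -0.18 for Cd24a. The small differences depended on the scaling: with arrays centred on their medians Aqp11 was at 0.16, Arpp21 at -0.018 and Cd24a at -0.0084. Centred on the median of bright genes, chosen after seeing the data, they were at 0.081, -0.095 and -0.086. Aqp11 was at -0.13 with quantile normalization. Cd24a was at -0.064 with the mean of its probe sets and, chosen after seeing the data, at 0.092 with its dimmer probe set.

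The count of 413 genes called over the whole table was 798 with quantile normalization (513 higher, 285 lower), 745 with median centring (545 and 200), 768 with centring on bright genes (514 and 254), 777 with cyclic loess (541 and 236), 907 with a pseudocount of 16 (484 and 423) and 1172 with an intensity trend and robust prior (618 and 554). It was 190 to 379 when 1 array was left out. The 126 lower genes became 45 on omitting Ets1-/- replicate 2, and 43, 38 and 44 on omitting the wild-type replicates 1, 2 and 3. Of the called genes 69.5% were higher, against 53.4% with the pseudocount, 52.7% with the trend, 56.8% above the median signal, 80.1% with the replicate block, and 66.7% to 85.4% when 1 array was left out. The 3 called genes among the 27 other stage genes were 8 with the trend (3 higher, 5 lower), and 2 to 3 when 1 array was left out. In the meiosis and cilium lists the pseudocount gave 2 and 1 lower in place of 1 and 0. With the pseudocount Brip1 and Cfap20 were called (adjusted p = 0.0485 and 0.0363). With the trend Dntt and Brip1 were (1.89e-05 and 0.0222), and Msh5 was without wild-type replicate 2 (0.0151). The cause was not tested.

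Replicates share numbers across the groups, but same-numbered arrays did not deviate together: the correlations of their deviations over genes brighter than the median of all probe sets were -0.08, -0.08 and -0.16. With the replicate block 311 genes were called (249 higher, 62 lower), the differences were the same, and Ptcra had an adjusted p of 0.0871. No spot background was given, so that only signal relative to other probe sets limits what dim genes can show.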

Other observations

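The microRNA gene Mir128-2 lies within Arpp21 in the RefSeq annotation and has a probe set naming it alone, which was looked up after the values of Arpp21 had been seen. It gave 2.33, 5.75 and 3.22 on the Ets1-/- arrays, against 3.87, 3.90 and 3.22 on the wild-type arrays, beside a median over all probe sets of 4.13. The groups overlapped, and 5 of the 6 values lay below that median, while Arpp21 lay above 9 on all 6 arrays.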
